A study of Mus musculus with 32 samples.

Results

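The transforming growth factor beta (TGF-beta) superfamily was followed across the liver cell fractions and tumors of a mouse model of colorectal cancer (CRC) spread to the liver. Members were taken by name: all probes of the array, control spots aside, whose gene name begins with Tgfb, Bmp, Smad, Inhb, Gdf or Acvr. This gave 80 probes of 53 genes, among 55681 probes and 34821 named genes on the array. The rule uses names and no measured value, though it was set with earlier results of these data known. The prefix also admits genes that are neither ligand, receptor nor SMAD, such as Bmp2k, which encodes a kinase, and Tgfbi, which encodes an adhesive matrix protein.

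Agilent 2-colour arrays, 16 in number and spread evenly over 2 slides, measured the mRNA of 8 groups of 4 samples. Control endothelial (EC), Ito (IC) and Kupffer (KC) cells came from Balb/c male mice of 6 to 8 weeks that received PBS into the spleen. The tumor microenvironment (TME) endothelial (ET), Ito (IT) and Kupffer (KT) cells came from such mice inoculated there with C26 cells, a syngeneic CRC line. The other groups were the CRC primary tumor (TP) and the tumor liver metastasis (TM), whose preparation is described no further in the sources used here. All groups share the strain, and the tumor groups and the TME rest on a single tumor line. Liver cells were isolated 14 days after inoculation by the methods text, while a legend gives another day. They were separated by collagenase perfusion, Percoll gradients and adherence, and were cultured for at most 24 h. Sinusoidal endothelial cells line the liver capillaries, Ito cells are the stellate cells that store retinoids, and Kupffer cells are the resident macrophages. The methods give 4 biological replicates for each group.

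Ligands of this superfamily are secreted dimers that bind a complex of type I and type II receptor kinases. The TGF-beta and activin branch phosphorylates SMAD2 and SMAD3, the BMP branch SMAD1, SMAD5 and SMAD9, and both join SMAD4 to act on genes in the nucleus. SMAD6 and SMAD7 are inhibitory SMADs that the pathway itself can induce. In the liver, TGF-beta is best known for its part in fibrosis, BMP6 and BMP2 for the control of iron through hepcidin, and BMP9 (gene Gdf2) and BMP10 as circulating ligands of the receptor ALK1 (gene Acvrl1).

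Every control and TM sample was labelled with Cy3 and every TME and TP sample with Cy5, and a control sample shared its array with the TME sample of the same cell type and number. Dye and group can therefore not be told apart for TME against control or for TP against TM. Slide 1 held the arrays of endothelial and Ito cells and slide 2 those of Kupffer cells and tumors, so that slide and cell type cannot be told apart for Kupffer against endothelial or Ito cells. Only Ito against endothelial cells, TM against control Kupffer cells and TP against TME Kupffer cells were compared within a dye and a slide. Values are the log2 of the deposited table of background-corrected and quantile-normalized signals, and a difference of 1 is a 2-fold change. A probe's brightness depends on its sequence, so levels are compared between samples for one gene and never between genes. Per channel, 38.4 to 57.1% of the 59305 spots were well above background, and 0 spots were saturated.

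Some samples go against their labels or stand apart. On array 4 of the Ito cells the difference of TME minus control ran opposite to the mean of the other 3 arrays (Pearson's r -0.66 across 17105 probes, which are not independent replicates), and on array 4 of the Kupffer cells likewise (r -0.60). Among the 53 members, the sample labelled control Ito 4 lay closer to the TME Ito samples of other numbers than to its own group for 34, and the sample labelled TME Ito 4 lay closer to the control Ito samples for 40. TME Ito 1 and 3, whose own group includes TME Ito 4, also did so for 31 and 33. The samples labelled control and TME Kupffer 4 lay closer to the opposite group for 40 and 35. Counts of members called are therefore given with all samples and without Ito and Kupffer replicate 4. These samples were set aside for the direction of their own TME minus control difference. Values without them, for the TME change and between fractions, are therefore descriptions and no independent test. The TM samples also differed among themselves, with replicates 1 and 4 lying closer to the TP samples for 34 and 29 of the 53 members. TME Ito 2 and control Kupffer 3 stood farthest from their own groups among the liver cell samples.

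Of the 53 genes, 29 were well above background in all 32 samples, 22 in 1 to 31 and 2 in none. The share of all array probes well above background in every sample was 30.7%, and that of probes in none was 28.2%. The genes seen in no sample were Bmp15, an oocyte ligand, and Smad9, the third of the BMP signal transducers. Where a gene had several probes, the probe well above background in most samples was used, which applied to 21 genes. The members fell into 3 TGF-beta ligands, 10 BMP ligands, 10 GDF ligands, 4 activin or inhibin subunits, 12 receptors, 6 signalling SMADs, 2 inhibitory SMADs and 6 others.

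**Figure D1:**
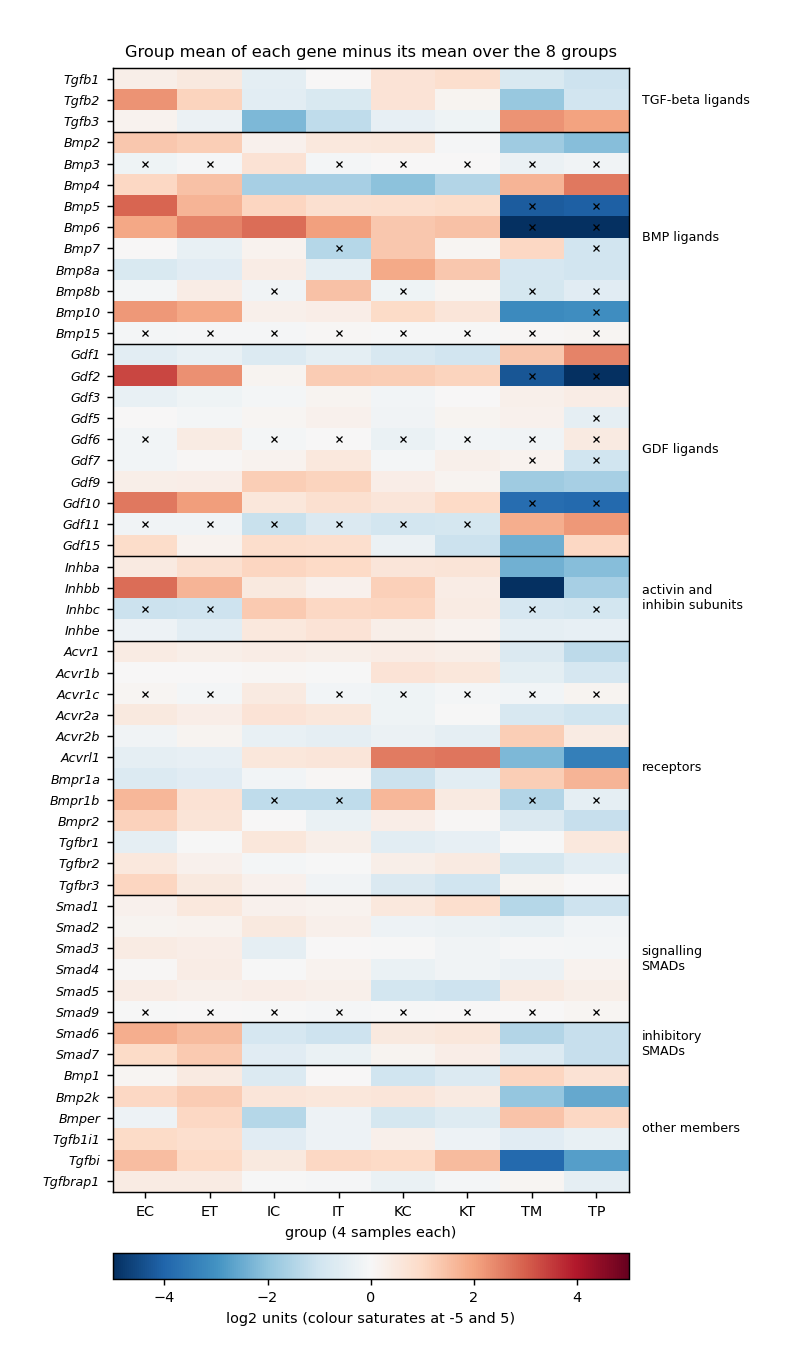
Level of each of the 53 genes in the 8 groups as the group mean minus the gene's mean over the groups (log2 units, colour limited to -5 and 5), with genes ordered by role. A cross marks a group where the probe was not well above background in any of the 4 samples. EC, IC and KC are control endothelial, Ito and Kupffer cells, ET, IT and KT the same cells from the TME, TM the liver metastasis and TP the primary tumor. The 2 tumor columns stand apart from the 6 liver cell columns, as for Bmp6, Gdf2 and Acvrl1.

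Promoters of 4 members are shown as examples of genes whose contrasts are described below, Smad6 and Bmp5 between liver cell fractions, Bmp6 and Tgfbi between liver cells and tumors. Each is the 250 bases before the RefSeq transcription start in GRCm38.p6, written 5′ to 3′ on the gene's strand, with capitals marking the letters of 3 motifs that were searched on both strands. The first was CAGAC, the element bound by SMAD3 and SMAD4, which is read as GTCTG where it lies on the opposite strand. The other two are GC-rich letters bound by the BMP SMADs. One of them is GGCGCC, which has the same letters on both strands. The remaining motif was GGAGCC, which is read as GGCTCC where it lies on the opposite strand. Smad6 lies at chr9:64022060-64022309 on the minus strand, Bmp5 at chr9:75775115-75775364, Bmp6 at chr13:38345466-38345715 and Tgfbi at chr13:56609336-56609585, these last 3 on the plus strand.
Smad6: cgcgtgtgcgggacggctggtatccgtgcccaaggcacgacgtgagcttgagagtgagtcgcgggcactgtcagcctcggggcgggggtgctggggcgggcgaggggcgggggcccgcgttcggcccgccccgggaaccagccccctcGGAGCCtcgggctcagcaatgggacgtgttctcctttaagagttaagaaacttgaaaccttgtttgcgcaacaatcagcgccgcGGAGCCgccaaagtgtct
Bmp5: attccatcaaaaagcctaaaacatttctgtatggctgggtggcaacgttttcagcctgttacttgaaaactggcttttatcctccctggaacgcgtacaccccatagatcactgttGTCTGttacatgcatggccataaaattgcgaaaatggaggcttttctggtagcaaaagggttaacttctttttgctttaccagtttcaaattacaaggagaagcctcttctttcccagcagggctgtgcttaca
Bmp6: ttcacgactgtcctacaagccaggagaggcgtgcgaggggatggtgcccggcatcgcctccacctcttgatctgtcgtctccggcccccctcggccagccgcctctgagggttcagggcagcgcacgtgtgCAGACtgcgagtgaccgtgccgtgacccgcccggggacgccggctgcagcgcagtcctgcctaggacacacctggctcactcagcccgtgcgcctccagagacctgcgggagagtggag
Tgfbi: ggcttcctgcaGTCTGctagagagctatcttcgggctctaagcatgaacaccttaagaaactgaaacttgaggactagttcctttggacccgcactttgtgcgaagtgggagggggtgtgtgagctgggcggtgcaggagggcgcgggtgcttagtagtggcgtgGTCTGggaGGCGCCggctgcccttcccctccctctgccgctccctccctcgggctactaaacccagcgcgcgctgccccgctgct
The Smad6 promoter held the second GC-rich motif 2 times and neither other motif. The Bmp5 and Bmp6 promoters each held 1 copy of the SMAD3 and SMAD4 element, and that of Tgfbi held 2 copies of it and 1 of the first GC-rich motif. Of 32851 RefSeq promoters, 42.2% held the SMAD3 and SMAD4 element in their 250 bases before the start, while 9.59% held the first GC-rich motif and 26.0% the second. A start was matched for 38 of the 53 members, with 47 promoters, of which 44.7%, 19.1% and 46.8% held these motifs in the same order. A match of letters is a description of the sequence and does not show that a SMAD binds there.

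The first comparison asked how the fractions of the healthy liver differ in this superfamily. Control Ito cells differed from control endothelial cells in 18 of 53 members, 4 higher and 14 lower, at an adjusted p under 0.05 in limma over all 55681 probes. Of all probes, 9.89% passed this test, 4.17% higher and 5.72% lower. The share of members was thus above that of the array, mainly among genes lower in Ito cells. Counted by probe, 22 of the 80 member probes passed, 17 of them lower. Gene counts here and below use the best-detected probe, while array shares include probes seen in no sample. Members were seen more often than array probes, and the part of detection was not tested. At the stricter thresholds of the study's methods, an adjusted p under 0.001 and at least a 4-fold change, 7 members passed, against 1.24% of all probes. Without Ito and Kupffer replicate 4, 22 members were called, against 11.7% of all probes, with Bmp1, Bmp2, Bmp6, Bmper and Gdf9 added and Smad3 lost. The median difference of the members was -0.09 and that of all probes 0.01. Both inhibitory SMADs and 2 of 3 TGF-beta ligands were lower, as were 3 of 10 BMP ligands, 2 of 10 GDF ligands and 3 of 12 receptors. Beside these, 3 of 11 endothelial markers were lower in control Ito cells, with the list at 11.01 to 11.45 against 12.23 to 12.50 in control endothelial samples, and their part was not tested. In these bulk samples fewer cells of a type and less RNA per cell cannot be told apart.

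Smad6, whose promoter is shown above, had the smallest adjusted p of the members between control Ito and control endothelial cells. The inhibitory SMAD6 competes with the BMP SMADs. Its values in the control endothelial samples were 9.78, 10.03, 10.02 and 9.67, and in the control Ito samples 7.21, 7.25, 7.58 and 6.80. The groups did not overlap, and the difference of -2.66 (SE 0.24, 95% interval -3.16 to -2.17, adjusted p = 4.5e-08) is a 6.33-fold lower level. In the TME samples the values were 9.59, 9.56, 9.78 and 9.64 in endothelial and 6.70, 7.16, 6.79 and 7.41 in Ito cells, again without overlap, and the difference was -2.63 (SE 0.24, adjusted p = 5.9e-08). Kupffer cells lay between, with 8.18, 8.36, 8.95 and 8.67 in control and 8.58, 8.63, 8.69 and 8.49 in TME samples. Control Kupffer cells were 1.33 higher than control Ito cells (adjusted p = 0.000312). The order of the liver fractions for Smad6 was thus endothelial, Kupffer, Ito, with no overlap between any of these control groups.

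Smad7, which blocks the type I receptors of the TGF-beta branch, had the same order of means at smaller distances. Control endothelial samples read 9.82, 10.10, 10.03 and 9.82, control Ito samples 8.80, 8.56, 8.41 and 7.89. The difference was -1.53 (SE 0.27, adjusted p = 0.000405), and in TME cells -1.63 (adjusted p = 0.000259). Control Kupffer cells at 9.15, 9.38, 9.17 and 8.86 lay 0.80 below endothelial cells (adjusted p = 0.0365), a call lost when any single replicate number was left out, with scaling to the 75th percentile and without Ito and Kupffer replicate 4 (-0.71, adjusted p = 0.106). Their difference of 0.73 from control Ito cells did not pass (adjusted p = 0.0776), though it did under both normexp settings and with dim probes left out.

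**Figure D2:**
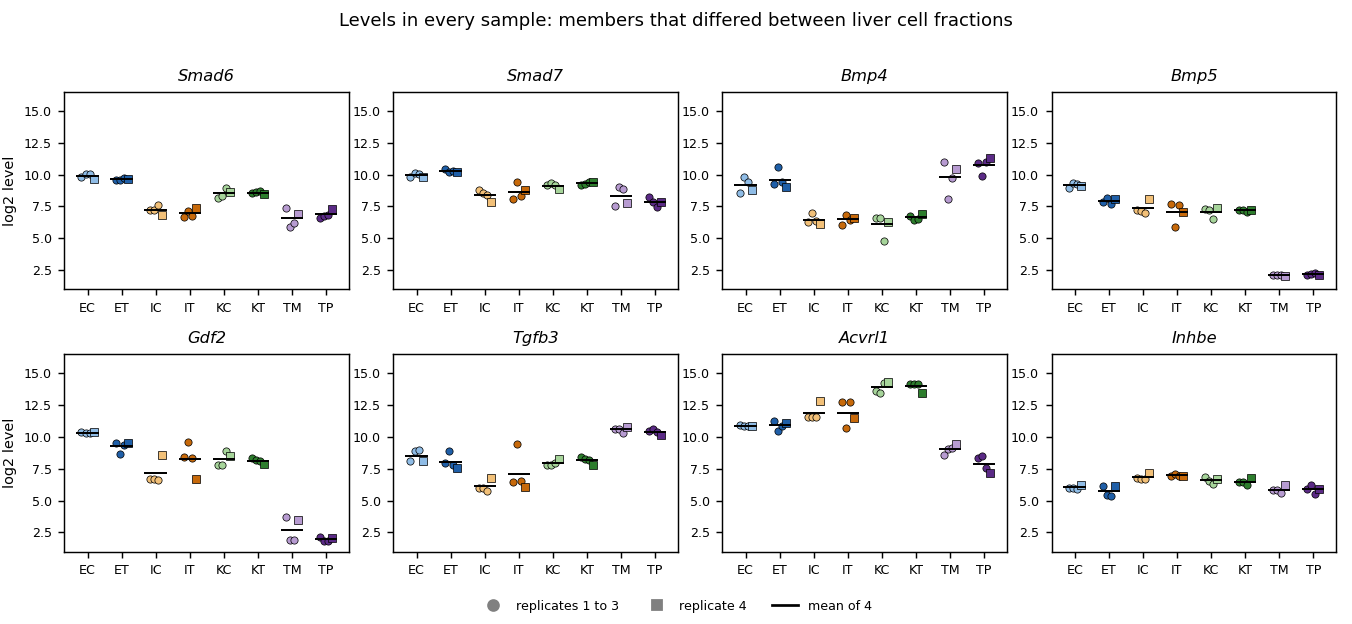
Log2 level of 8 members (Smad6, Smad7, Bmp4, Bmp5, Gdf2, Tgfb3, Acvrl1, Inhbe) in all 32 samples, by group, with circles for replicates 1 to 3, squares for replicate 4 and a line at the group mean. Smad6 stood between 9.56 and 10.03 in all endothelial samples and between 6.70 and 7.58 in all Ito samples, and replicate 4 of the Ito groups lay on the far side of its own group for Gdf2.

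Among the TGF-beta ligands, Tgfb3 read 8.12, 8.94, 8.98 and 8.10 in control endothelial and 6.0, 5.99, 5.79 and 6.78 in control Ito cells. The groups did not overlap and differed by -2.40 (SE 0.45, adjusted p = 0.000614). In control Kupffer cells, at 7.83, 7.81, 7.98 and 8.30, Tgfb3 was 1.84 higher than in Ito cells (adjusted p = 0.00503), a call lost without replicate 1 or 3. Tgfb2 had the same direction, at 8.88 or above in all control endothelial samples and at 5.91 to 7.04 in the control Ito samples. It differed by -2.76 (adjusted p = 0.00291), a call lost without replicate 3. In TME cells neither was called between Ito and endothelial cells in the main fit, with differences of -0.95 for Tgfb3 (adjusted p = 0.222) and -1.89 for Tgfb2 (adjusted p = 0.0509). Tgfb2 was called there under both normexp settings, with scaling to the 75th percentile and with dim probes left out. Its call also appeared with the probe of highest variance and without replicate 2. Tgfb3 was called there without replicate 2, and TME Ito 2 read 9.42 for it, with the next TME Ito sample at 6.56. Tgfb1, the chief fibrogenic isoform, was not called between Ito and endothelial cells in the main fit but was 1.16 higher in Kupffer than in Ito cells (adjusted p = 0.00571), with 9.52, 9.56, 10.61 and 10.30 against 8.92, 8.91, 8.79 and 8.73. The methods' t-test called Tgfb1 between control Ito and control endothelial cells, and the fit without replicate 2 called it between these fractions of the TME. The Tgfb1 call between Kupffer and Ito cells was lost without Ito and Kupffer replicate 4 (1.02, adjusted p = 0.0552), without replicate 3 or 4 and by the methods' t-test.

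Of the 10 BMP ligands, 3 were lower and 1 was higher in control Ito than in control endothelial cells. Bmp4, a ligand that acts through BMPR1A and BMPR2, read 8.57, 9.80, 9.46 and 8.80 in control endothelial cells and 6.31, 6.99, 6.39 and 6.10 in control Ito cells. This is a difference of -2.71 (SE 0.47, adjusted p = 0.000295) with no overlap. Control Kupffer cells read 6.63, 6.62, 4.83 and 6.29, which is 3.07 below endothelial cells (adjusted p = 2.4e-05). In the TME, Ito cells lay 3.11 below endothelial cells (adjusted p = 7.2e-05). Bmp5, another ligand of this branch, was 1.84 lower in control Ito (adjusted p = 4.2e-05) and 2.09 lower in control Kupffer cells (adjusted p = 2.6e-06) than in endothelial cells, and Bmp10, the circulating partner of BMP9, was 1.94 lower in Ito cells (adjusted p = 0.0076), a call lost without replicate 2 or 3. In TME cells the difference of Bmp10 was -1.59 (adjusted p = 0.0353), lost without replicate 1, 2 or 3 and by the methods' t-test. Bmp8a, the ligand that was higher in control Ito cells, differed there by 1.1 (adjusted p = 0.0451), a call lost with the array block, by the methods' t-test and without replicate 1, 2 or 3. It was also higher in Kupffer cells, with 8.87, 9.14, 9.25 and 8.0 in control Kupffer against 6.11, 6.32, 6.17 and 6.14 in control endothelial cells, a difference of 2.63 (adjusted p = 3.5e-06), and it was 1.54 higher there than in control Ito cells (adjusted p = 0.00297, lost by the methods' t-test). Bmp8a has a near-identical paralog, Bmp8b, so its probe may read both. Bmp6, the iron-regulating ligand, was 1.43 lower in Kupffer than in Ito cells (10.45, 10.23, 10.04 and 9.99 against 12.08, 11.95, 11.96 and 10.46, adjusted p = 0.0092). The Bmp6 call was lost without replicate 1, 2 or 3 and by the methods' t-test. The difference was -1.76 (adjusted p = 0.000238) without Ito and Kupffer replicate 4, a fit that leaves out the low Ito value of 10.46.

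Gdf2 showed the largest difference of the members between control Ito and control endothelial cells. The control endothelial samples read 10.39, 10.33, 10.29 and 10.38 and the control Ito samples 6.69, 6.71, 6.65 and 8.59. The high value belonged to the sample labelled control Ito 4, and the groups still did not overlap. The difference was -3.19 (SE 0.48, 95% interval -4.17 to -2.21, adjusted p = 4.7e-05), a 9.11-fold lower level. It was -3.66 (adjusted p = 9.8e-07) without Ito and Kupffer replicate 4. That fit leaves out the high value, which by itself enlarges the difference and narrows the spread, so it adds no independent support. In TME cells the difference was -1.01 and did not pass (adjusted p = 0.225). The lowest TME Ito value, 6.69, belonged to replicate 4, with the next at 8.32, so this difference rests in part on that sample. Gdf2 was also not called there without Ito and Kupffer replicate 4. Control Kupffer cells (7.80, 7.80, 8.89 and 8.51) lay 2.10 below endothelial cells (adjusted p = 0.00179). Gdf10, a relative of BMP3, was 2.08 lower in Ito (adjusted p = 4.2e-06) and 2.03 lower in Kupffer cells (adjusted p = 1.8e-06). In TME Ito cells it was 1.31 lower (adjusted p = 0.0013), lost without replicate 1 or 3 and by the methods' t-test.

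Of the 4 inhibin beta subunits, which pair to form activins and inhibins, 2 were higher in control Ito than in control endothelial cells and 0 were lower. Inhbe, a subunit best known from hepatocytes, read 6.0, 6.0, 5.94 and 6.26 in control endothelial and 6.79, 6.66, 6.71 and 7.13 in control Ito cells. The groups did not overlap and differed by 0.77 (SE 0.18, adjusted p = 0.00406), a call lost without replicate 1. In TME cells the difference was 1.18 (adjusted p = 5.4e-05). Inhbc, the other hepatocyte subunit, was not well above background in any control endothelial sample and was so in 3 of 4 control Ito samples, where it was at least 1.21-fold higher (adjusted p = 0.000229). Such a bound sets the group mean against the lowest signals well above background, and each bound given here is between groups of the same dye. In Kupffer cells Inhbc was at least 1.17-fold higher than in endothelial cells (adjusted p = 0.000281). In Ito cells these subunits moved with hepatocyte markers: of 7 such markers 5 were higher in control Ito and 6 in TME Ito cells than in the endothelial fraction, with a mean level of the list of 9.36 to 9.96 in control Ito samples against 7.60 to 7.87 in control endothelial samples. In control Kupffer cells Inhbe was also higher than in endothelial cells, by 0.55 (adjusted p = 0.0241, lost without replicate 1 or 2 and without Ito and Kupffer replicate 4), while 0 of 7 hepatocyte markers passed there and the list lay at 7.31 to 8.41. The part of these markers in the results was not tested.

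Receptors were split. Acvrl1, the type I receptor of BMP9 and BMP10 that is best known from endothelium, was highest in Kupffer cells. It read 13.59, 13.48, 14.22 and 14.35 in control Kupffer, 10.93, 10.84, 10.83 and 10.88 in control endothelial and 11.54, 11.55, 11.59 and 12.84 in control Ito cells. No pair of these groups overlapped. Kupffer cells lay 3.04 above endothelial (SE 0.38, adjusted p = 1.3e-06) and 2.03 above Ito cells (adjusted p = 0.000412). Tgfbr3, the coreceptor betaglycan, had the reverse order, with Kupffer 1.81 (adjusted p = 2.7e-06) and Ito cells 0.87 (adjusted p = 0.0173) below endothelial cells, the latter a call lost without replicate 1 or 3. Kupffer cells were 0.94 lower than Ito cells (adjusted p = 0.00639, lost without replicate 1). Bmpr1b, a type I BMP receptor, was not well above background in any control Ito sample and was at least 1.55-fold lower there than in endothelial cells (adjusted p = 0.000144). Bmpr2, the type II BMP receptor, was 1.13 lower in Ito cells (adjusted p = 0.0101, lost without replicate 1 or 4 and by the methods' t-test). Tgfbr1, the type I TGF-beta receptor, was 1.03 higher in Ito cells (adjusted p = 0.0258; lost without replicate 1, 2 or 3 and with the probe of highest variance). In control Kupffer cells it was 1.1 lower than in Ito cells (adjusted p = 0.0121), lost without replicate 1 or 3 and with that probe. Bmpr1a, a type I BMP receptor, was 0.95 lower in control Kupffer than in control Ito cells (adjusted p = 0.000614, lost by the methods' t-test) and 0.62 higher in TME Ito than in TME endothelial cells (adjusted p = 0.0336, lost without replicate 1, 3 or 4 and by the methods' t-test). Acvr1b, the type I activin receptor, was higher in Kupffer cells than in both other fractions, by 0.69 and 0.65 (adjusted p = 0.0189 and 0.036), and both calls were lost without replicate 1, 3 or 4 and with the probe of highest variance (0.03 and 0.31). The call against Ito cells was also lost without Ito and Kupffer replicate 4 and with scaling to the 75th percentile.

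Among the signalling SMADs, Smad5, a BMP transducer, separated Kupffer cells from both other fractions, with 10.16, 10.16, 9.98 and 9.91 in control Kupffer, 11.30, 11.37, 11.33 and 11.44 in control endothelial and 11.38, 11.42, 11.34 and 11.14 in control Ito cells. Kupffer cells lay below both groups without overlap, by 1.31 (adjusted p = 1.2e-07) and 1.27 (adjusted p = 5.9e-07). Smad3 was 0.86 lower in control Ito than in endothelial cells (adjusted p = 0.0403), which was lost without Ito and Kupffer replicate 4 (-0.75, adjusted p = 0.119), without replicate 1, 3 or 4 and with scaling to the 75th percentile. Smad2 was 0.75 lower in Kupffer than in Ito cells (adjusted p = 0.000917). With the probe used and the deposited values, Smad4 passed in none of the comparisons between control fractions. It was called between control Kupffer and control endothelial cells after normexp with loess and Aquantile normalization, and with the probe of highest variance. Tgfb1i1, a focal adhesion protein induced by TGF-beta, was 1.49 lower in Ito cells (adjusted p = 0.00608; lost without replicate 1 and with the probe of highest variance).

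In all, 16 of 53 members differed between control Kupffer and control endothelial cells, 5 higher and 11 lower, where 21% of all probes did, 8.95% higher and 12.1% lower. Between control Kupffer and control Ito cells 13 members differed, 7 higher and 6 lower, where 14.8% of all probes did, 7.24% higher and 7.57% lower. The members called were 30.2% and 24.5% of the 53, above the shares of the array, and in the first of these comparisons the members called higher were near their background. Counted by probe, as the array is, 21 and 17 of the 80 member probes passed, which is nearer to those shares. TME Ito and TME endothelial cells differed in 11 members, 3 higher and 8 lower, against 8.26% of all probes, 3.48% higher and 4.78% lower. At the stricter thresholds 6, 2 and 2 members passed in these comparisons, against 2.63%, 0.927% and 0.871% of all probes. These counts were 14, 13 and 11 without Ito and Kupffer replicate 4, against 20.4%, 14.1% and 8.63% of all probes. The comparisons between control fractions share samples, and the control and TME samples of a cell type share arrays, so these counts are not independent of each other.

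The fractions were checked against marker genes at the RNA level. The study itself stained the fractions with an antibody for each cell type and reports high purity for all of them. That is a protein measure, which these RNA lists do not repeat. The Kupffer label was borne out against endothelial cells, with 5 of 9 Kupffer markers higher and 5 of 11 endothelial markers lower. It was not borne out against control Ito cells, where 0 of 9 Kupffer markers were higher, while 6 of 7 hepatocyte markers were lower. Ito cells were not enriched for stellate markers: of 10, 0 were higher and 1, Col3a1, was lower in control Ito than in control endothelial cells, and the mean level of the list was 8.78 to 8.96 in control Ito, 9.59 to 9.93 in control endothelial and 8.26 to 8.58 in control Kupffer samples. Lrat, the retinoid-storing enzyme that defines stellate cells, was well above background in 2 of 4 control Ito and 1 of 4 control endothelial samples. Control Ito samples carried more of 3 of 4 erythroid and 4 of 9 Kupffer markers than endothelial samples, and of 2 of 4 and 2 of 9 without Ito and Kupffer replicate 4. The name Ito is therefore used here as the label of a fraction, and the part of other cell types in the differences above was not tested.

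**Figure D3:**
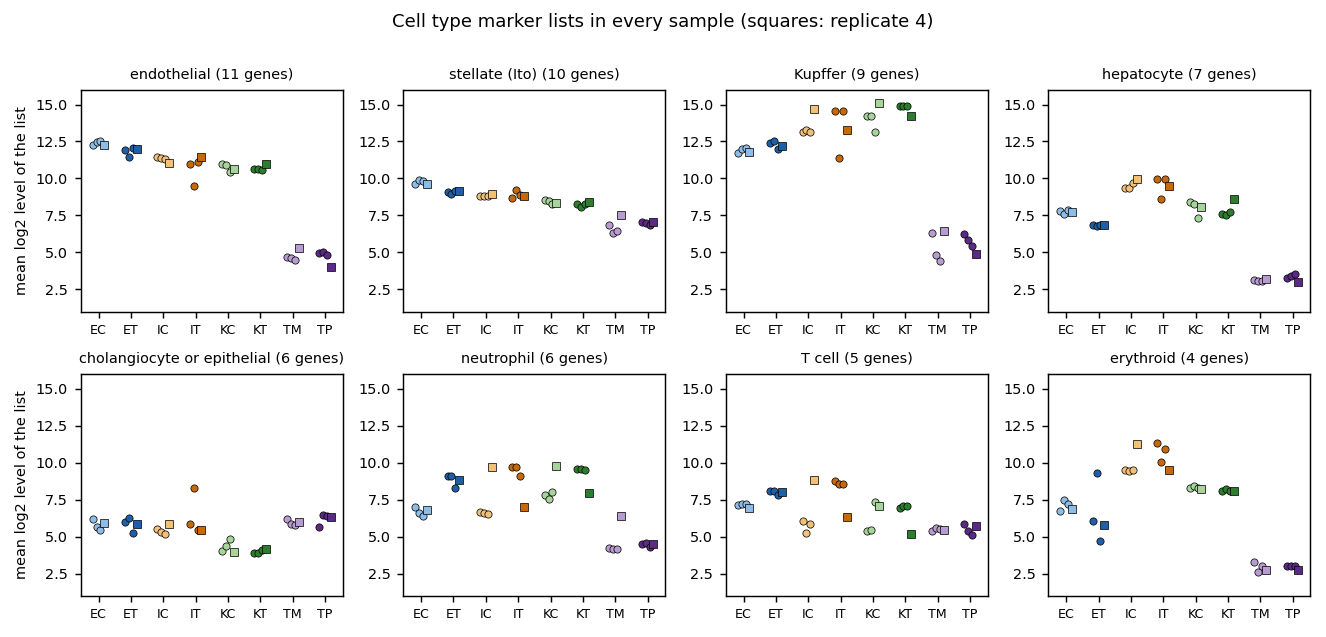
Mean log2 level of 8 lists of marker genes in each of the 32 samples, by group. The hepatocyte list lay at 9.36 to 9.96 in control Ito and 7.60 to 7.87 in control endothelial samples, the stellate list was higher in control endothelial than in control Ito samples, and the Kupffer list lay at 4.40 to 6.47 in TM samples against 13.16 to 15.10 in control Kupffer samples.

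The next comparison asked how the TME changed the superfamily in each cell type. Few members moved. In endothelial cells 1 of 53 members passed, against 1.14% of all probes (0.564% lower). In Ito cells 0 passed, against 0.289% of all probes, and in Kupffer cells 0, against 0.436%. The counts are near or below what these shares give. At an unadjusted p under 0.05 in the same limma fit, 6, 8 and 2 members passed, against 7.71%, 9.88% and 7.37% of all probes. At the stricter thresholds 0 members passed in each cell type, against 0.165%, 0.0916% and 0.111%. The median differences of the members were 0.01, 0.01 and 0.04.

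Bmp5 was the member that fell in TME endothelial cells. Control samples read 8.97, 9.38, 9.25 and 9.13, and TME samples 7.86, 8.18, 7.66 and 8.07. The groups did not overlap, and TME was lower on 4 of 4 arrays. Bmp5 fell by 1.24 on the log2 scale (SE 0.27, 95% interval -1.80 to -0.68, adjusted p = 0.0156), to a 2.36-fold lower level. The call was lost when replicate 1, 3 or 4 was left out, and dye cannot be told apart from the TME here. Mean log2 levels of marker lists differed beside it without overlap. The list of 6 neutrophil markers, of which 0 passed, lay at 6.41 to 7.01 in control and 8.30 to 9.12 in TME endothelial samples. That of 7 hepatocyte markers, of which 2 were lower, lay at 7.60 to 7.87 and 6.81 to 6.88. The T cell list was higher in TME samples and the stellate and endothelial lists were lower, with 0 of their genes passing. The part of these cell types was not tested.

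Other members of the endothelial fraction did not overlap between the groups but did not pass the test. Bmper, a secreted BMP-binding regulator, read 8.12, 8.92, 8.92 and 8.19 in control and 9.63, 10.19, 9.85 and 9.63 in TME cells. Its difference was 1.29 (SE 0.41, adjusted p = 0.185), and 1.29 with an adjusted p of 0.0179 in the fit without Ito and Kupffer replicate 4, which shares its estimate of the spread with these cells and called 1.64% of all probes here. In that fit 3 of 6 neutrophil and 1 of 5 T cell markers were higher and 2 of 7 hepatocyte and 1 of 10 stellate markers lower. The part of these cell types was not tested. Gdf2 read 9.56, 8.69, 9.33 and 9.54 in TME against 10.29 to 10.39 in control cells, a difference of -1.06 (adjusted p = 0.544), and was called by the methods' t-test. Tgfbr3 differed by -0.60 (adjusted p = 0.39). Smad7 read 10.44, 10.21, 10.30 and 10.21 in TME cells, all above the 9.82 to 10.10 of control cells, with a difference of 0.34 and a 95% interval from -0.22 to 0.91.

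In Ito cells the result turned on array 4. Without Ito and Kupffer replicate 4, which leaves out the samples that ran the other way, 5 of 53 members passed, against 7.66% of all probes. In that fit Bmper and Gdf2 were 2.09 and 2.12 higher in TME Ito cells, and Bmp1, the procollagen-cleaving protease, was 1.36 higher. Bmp6 and Bmp8a were both 1.59 lower. In the same fit 5 of 6 neutrophil and 3 of 5 T cell markers were higher and 2 of 11 endothelial and 2 of 10 stellate markers lower. Of 6 epithelial markers 0 passed, with a median difference of 1.4. TME Ito 2 read 8.31 for the mean of that list beside 5.43 to 5.88 in the other TME Ito samples, and 11.38 for the Kupffer list beside 13.25 to 14.58. The part of these cell types was not tested. With all 4 replicates the same 5 genes differed by 1.18, 1.11, 0.72, -0.76 and -0.86, with adjusted p from 0.34 to 0.52. For Bmp6 the control samples read 12.08, 11.95, 11.96 and 10.46 and the TME samples 10.58, 9.80, 10.84 and 12.19. The 2 values of array 4 are those that cross into the opposite group. For Gdf2 they cross likewise, with 6.69, 6.71, 6.65 and 8.59 in control and 8.47, 9.62, 8.32 and 6.69 in TME samples.

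In Kupffer cells 2 members passed without replicate 4 of Ito and Kupffer cells, against 3.85% of all probes. Bmp8a was 0.93 lower and Bmpr1a 0.73 higher in TME cells, beside 2 of 6 neutrophil and 1 of 5 T cell markers higher and 1 of 11 endothelial markers lower, whose part was not tested. With all replicates Bmpr1a read 8.10, 8.40, 7.54 and 8.49 in control and 8.67, 8.63, 8.93 and 8.46 in TME cells, a difference of 0.54 (adjusted p = 0.368). The groups overlapped only through the 2 samples of array 4.

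**Figure D4:**
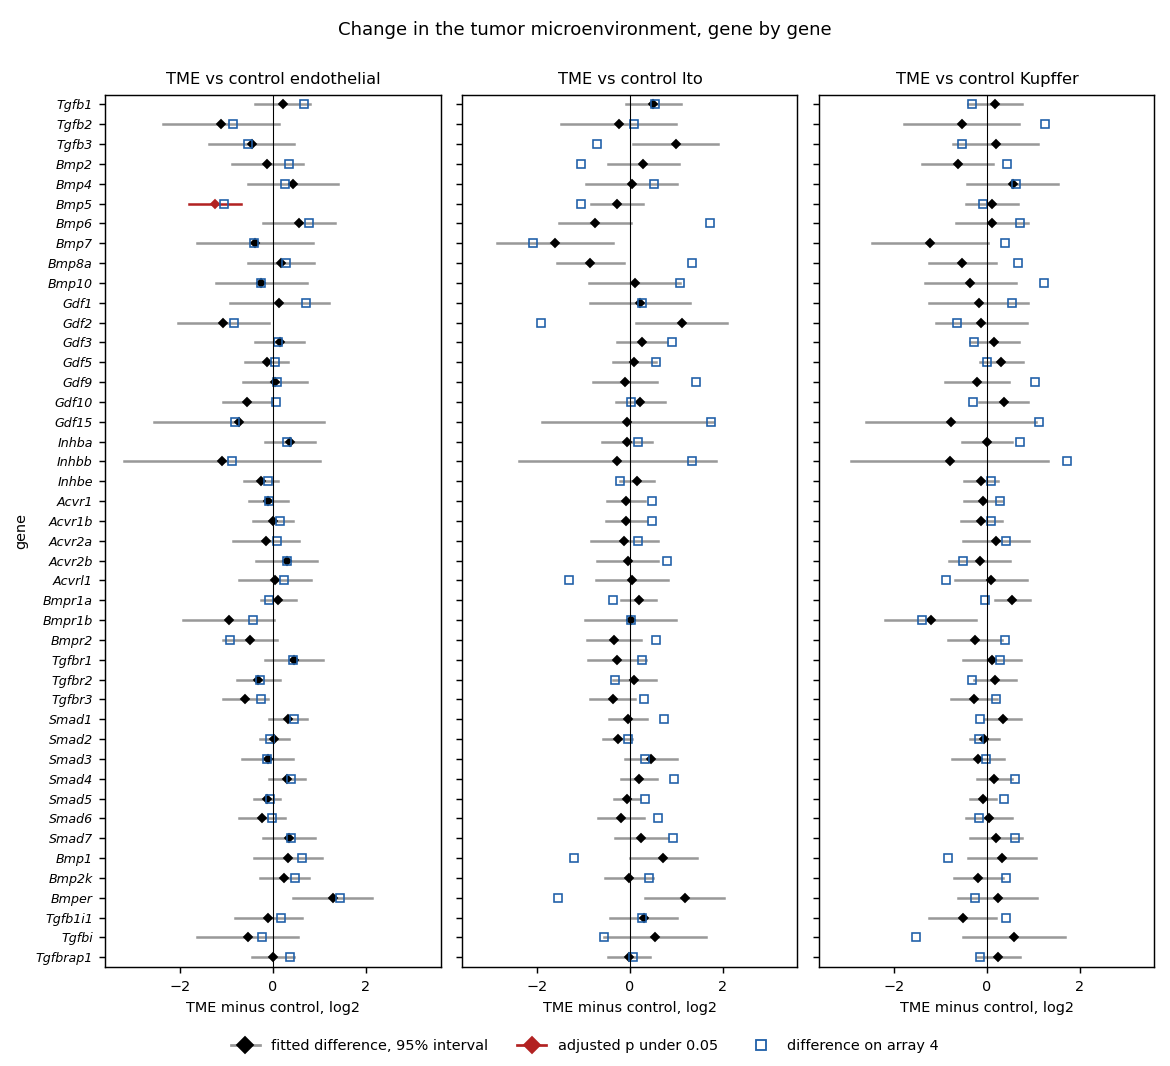
Fitted difference of TME minus control (log2 units) with its 95% interval for members in endothelial, Ito and Kupffer cells, with red for an adjusted p under 0.05 and a blue open square for the difference on array 4 alone. Bmp5 in endothelial cells is the single red value, at -1.24, and the squares of the Ito and Kupffer panels often lie on the other side of 0 from the fitted value.

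Whether the TME change differed between cell types was tested as a contrast of the same fit. With all samples 0 members passed for any of the 3 pairs of cell types, against 0.111% of all probes for endothelial against Ito, 0.0808% for endothelial against Kupffer and 0.00359% for Ito against Kupffer cells. At an unadjusted p under 0.05 there were 6, 2 and 0 members, against 4.45%, 3.88% and 4.13% of all probes. Without Ito and Kupffer replicate 4, 3 members differed between endothelial and Ito cells, against 1.67% of all probes, in a fit where the samples left out fix the direction of the Ito change. The endothelial minus Ito difference in change was -3.18 for Gdf2, 2.15 for Bmp6 and 1.76 for Bmp8a there, and with all samples -2.18, 1.32 and 1.03. For the Gdf2 contrast, TME samples lay below control samples in endothelial cells and, on arrays 1 to 3, above them in Ito cells.

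Primary tumors were then compared with liver metastases. Of the members 1 passed, Gdf15, against 3.01% of all probes (2.05% higher), and the median difference of the members was 0.03. At an unadjusted p under 0.05 in limma 16 of the 53 members (30.2%) passed, against 16.4% of all probes, and at the stricter thresholds 0 passed, against 0.408%. In the fit without Ito and Kupffer replicate 4 the count was 1, against 2.8%. Gdf15 encodes a stress-induced cytokine. It read 10.39, 6.48, 4.52 and 9.23 in TM and 12.59, 12.36, 9.92 and 9.65 in TP, and was well above background in 3 of the 4 TM samples. The groups overlapped, while TP was higher on 4 of 4 arrays. The difference was 3.48 (SE 0.89, 95% interval 1.65 to 5.31, adjusted p = 0.0289). The call was lost without replicate 2 or 3, by the methods' t-test and in limma under background correction by normexp (adjusted p = 0.055 and 0.0707). TM 2 and 3 were low, while TM 1 read above TP 3 and 4 and TM 4 just below them.

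Among other members, Inhbb and Bmp7 followed the spread among the metastases. Inhbb, which forms activin B, read 10.26, 4.41, 4.12 and 11.58 in TM and 11.33, 11.48, 10.41 and 10.91 in TP. TM 2 and 3 were low, while TM 1 and 4 lay near the range of the primary tumors, and the difference of 3.44 did not pass (adjusted p = 0.0648). It passed in a fit with the array as a block, as did Bmp7, a BMP ligand with 3.59, 6.25, 7.25 and 3.67 in TM against 3.33, 3.52, 3.72 and 2.14 in TP (difference -2.01, adjusted p = 0.0678 without the block). Bmp7 was well above background in 2 of 4 TM samples and in 0 of 4 TP samples, so that the size of its difference is not determined. TM 1 and 4 lay at the level of the TP samples for Bmp7. Acvrl1 did not overlap between TM (8.57, 9.06, 9.11 and 9.48) and TP (8.34, 8.49, 7.59 and 7.18), with a difference of -1.15 (adjusted p = 0.0955). Dye and tumor site cannot be told apart in these values.

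The tumors themselves were set against Kupffer cells of the same dye and slide, TM against control and TP against TME Kupffer cells, to describe how the superfamily differs between tumor and a liver fraction. TM differed in 35 of 53 members, 10 higher and 25 lower, where 39.4% of all probes differed, 23.3% higher and 16.2% lower. TP differed in 36, 11 higher and 25 lower, where 43.6% of all probes did, 25.7% higher and 17.8% lower. At the stricter thresholds 21 members passed in TM and 16 in TP, against 14.3% and 15.9% of all probes. The counts were 36 and 33 without Ito and Kupffer replicate 4, against 38.2% and 41.7%. Members called lower were thus more frequent than on the whole array, also by probe, with 34 and 37 of the 80 member probes lower. The median differences were -0.74 and -0.89, against 0.08 and 0.10 over all probes. In both comparisons 9 of 9 Kupffer markers and 10 of 11 endothelial markers were lower in the tumor and 3 of 6 epithelial markers were higher, and the part of cell type in the member values was not tested. The tumor comparisons rest on different samples, yet TM and TP shared arrays, as did control and TME Kupffer cells.

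Some ligands that differed between the liver fractions were at background in the tumors. Others, such as Bmp4 and Tgfb3, were well above background in all tumor samples. Bmp6 read 3.03, 2.80, 4.01 and 2.46 in TM and 2.92, 2.36, 2.49 and 2.30 in TP, not well above background in any of these 8 samples, against 9.99 to 10.45 in control and 10.04 to 10.71 in TME Kupffer cells. It was at least 12.7-fold lower in TM (adjusted p = 1.3e-14) and at least 13.4-fold lower in TP (adjusted p = 2e-15). Gdf2 was at least 5.31-fold and at least 4.69-fold lower (adjusted p = 1.9e-10 and 1.9e-11). Bmp5 was at least 2.73-fold and at least 2.48-fold lower, and Gdf10 at least 2.04-fold and at least 2.19-fold lower. Bmp10 was well above background in 1 of 4 TM samples and in 0 of 4 TP samples, with a fitted difference of -4.14 in TM, which ranged from -4.91 to -1.59 over the alternatives, and a level at least 2.14-fold lower in TP. The fold values are bounds because the tumor signal lay at the background of the array. Bmp2, which also acts on hepcidin, was 2.35 and 2.07 lower (adjusted p = 6.4e-06 and 3.5e-05) and was well above background in all tumor samples.

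Activin and inhibin subunits were lower in the tumors, 4 of 4 in TM and 3 of 4 in TP, where 16.2% and 17.8% of all probes were lower. These counts include Inhbc, which was not well above background in any tumor sample. Its TP call was lost with scaling to the 75th percentile, by the methods' t-test and without replicate 3. Inhba, the subunit of activin A, read 11.10, 11.48, 11.52 and 12.05 in TM and 12.03, 12.28, 11.57 and 11.35 in TP, against 15.06, 15.06, 13.80 and 14.29 in control and 14.43, 14.42, 14.41 and 15.00 in TME Kupffer cells. Neither tumor group overlapped its Kupffer group, and the differences were -3.02 (SE 0.26, adjusted p = 2.0e-10) and -2.76 (SE 0.26, adjusted p = 9.8e-10). Inhbb was 6.26 lower in TM (adjusted p = 1.1e-05) and was not called in TP, though it was under both normexp settings and the methods' t-test. It was well above background in 2 of 4 TM samples. Its TM mean rests on replicates 2 and 3 at 4.41 and 4.12, while replicates 1 and 4 read 10.26 and 11.58, and the difference ranged from -8.04 to -4.70 over the alternatives and was not called in TM by the methods' t-test. Inhbe was 0.74 and 0.59 lower (adjusted p = 0.00102 and 0.00695).

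**Figure D5:**
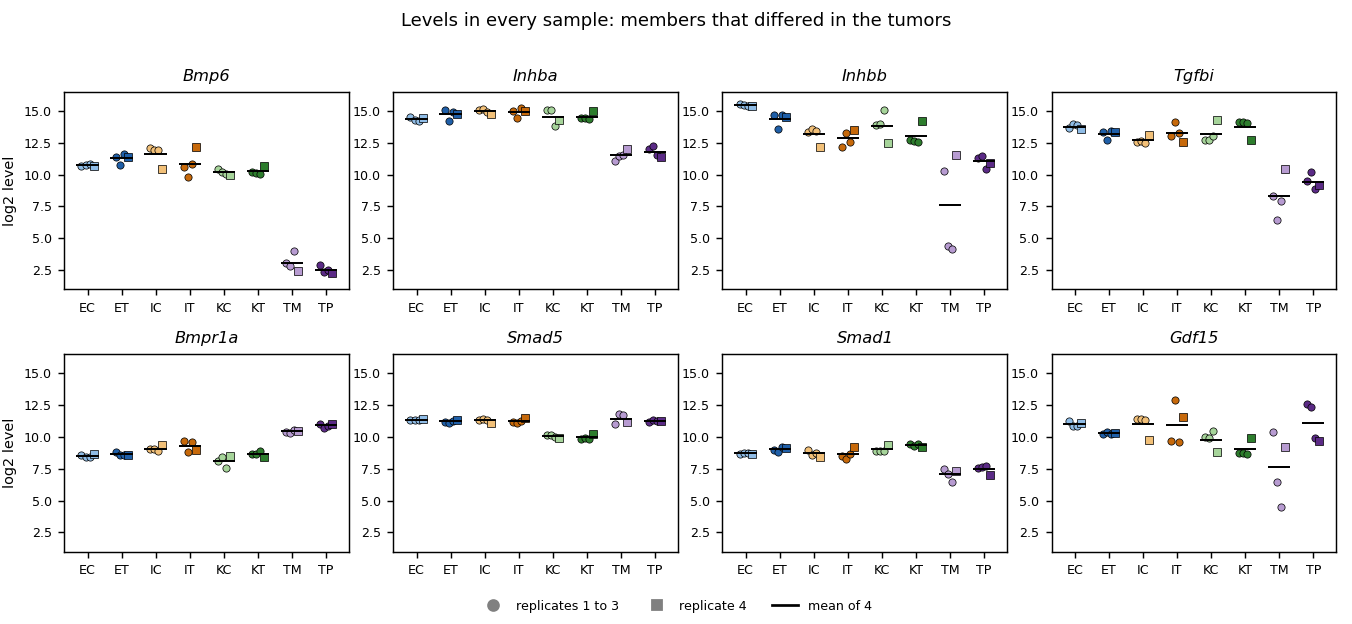
Log2 level of 8 members (Bmp6, Inhba, Inhbb, Tgfbi, Bmpr1a, Smad5, Smad1, Gdf15) in all 32 samples, by group, with circles for replicates 1 to 3, squares for replicate 4 and a line at the group mean. Bmp6 lay between 2.30 and 4.01 in the 8 tumor samples and at 9.80 or above in the liver cells, Inhbb at 4.12 and 4.41 in TM replicates 3 and 2, and Bmpr1a at 10.32 or above in all tumor samples.

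Other ligands were higher in the tumors. Bmp4 read 10.97, 8.13, 9.70 and 10.48 in TM and 10.91, 9.87, 11.02 and 11.30 in TP, all above the 4.83 to 6.92 of the Kupffer samples. The differences were 3.73 (SE 0.47, adjusted p = 2.0e-07) and 4.13 (SE 0.47, adjusted p = 3.0e-08), or 13.3-fold and 17.6-fold. Tgfb3 read 10.66, 10.64, 10.34 and 10.81 in TM and 10.44, 10.60, 10.40 and 10.12 in TP, with differences of 2.63 and 2.22 (adjusted p = 1.8e-05 and 0.000153), while Tgfb1 was 1.44 and 1.88 lower (adjusted p = 0.000146 and 3.4e-06). The 3 TGF-beta isoforms thus did not move together, and Tgfb2 was 2.59 lower in TM (adjusted p = 0.000847) and not called in TP, where a second probe was 1.86 lower (adjusted p = 0.018). Gdf11, a ligand related to myostatin, was not well above background in any Kupffer sample and was at least 1.41-fold and 1.48-fold higher in the tumors (adjusted p = 4.7e-06 and 7.1e-07). For Gdf1, which shares a transcript with Cers1, the probe used was 2.12 higher in TM (adjusted p = 0.00145, lost without replicate 1 or 4 and by the methods' t-test) and 3.44 higher in TP (adjusted p = 3.0e-06), and another probe was 2.25 lower in TP, so that its direction is uncertain.

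Receptors changed in both directions. Bmpr1a read 10.40, 10.32, 10.58 and 10.46 in TM and 11.01, 10.74, 10.84 and 11.03 in TP, above every Kupffer sample, with differences of 2.31 (SE 0.18, adjusted p = 3.8e-11) and 2.24 (SE 0.18, adjusted p = 6.1e-11). Acvrl1 was 4.85 lower in TM and 6.09 lower in TP (adjusted p = 2.5e-11 and 2.4e-13). Tgfbr2, the type II TGF-beta receptor, was 1.18 and 0.98 lower (adjusted p = 8.1e-05 and 0.000674), and Tgfbr3 was 0.88 and 1.04 higher (adjusted p = 0.00343 and 0.000621), in TM a call lost without replicate 4. The TM calls of both were lost by the methods' t-test, as were those of Tgfb2 and Smad7. Acvr1, a type I receptor of BMPs, was 1.07 and 1.60 lower, Bmpr2 1.06 and 1.21 lower (in TM lost without replicate 1 and by the methods' t-test) and Acvr1b 1.18 and 1.42 lower, the TM call of Acvr1b being lost with the probe of highest variance (-0.49, adjusted p = 0.462). Acvr2b, the type II activin receptor, was 1.54 higher in TM (adjusted p = 0.000233) and 0.86 in TP (adjusted p = 0.029), the former lost by the methods' t-test and the latter without replicate 1, 2 or 4 and without Ito and Kupffer replicate 4. Acvr2a, the other type II activin receptor, was 0.94 lower in TP (adjusted p = 0.0291), a call lost without replicate 1, 2 or 3, without Ito and Kupffer replicate 4, by the methods' t-test and with normexp and quantile normalization, and was not called in TM. Tgfbr1 was called higher in TP, a call lost without replicate 1 or 2. With the probe of highest variance it differed by -0.43 (limma adjusted p = 0.542), so that its direction depends on the probe.

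Among the signalling SMADs, Smad1 was lower in both tumor groups. It read 7.50, 7.07, 6.48 and 7.35 in TM and 7.53, 7.65, 7.72 and 6.98 in TP against 8.90 to 9.37 in control and 9.23 to 9.47 in TME Kupffer cells, with differences of -1.92 and -1.89 (adjusted p = 4.5e-09 and 5.5e-09). Smad5 was 1.38 and 1.30 higher (adjusted p = 2.7e-09 and 6.9e-09), but a second Smad5 probe differed by -0.37 and -0.70, so that the direction of Smad5 depends on the probe. Smad2, Smad3 and Smad4 differed by -0.12, -0.05 and 0.06 in TM and by 0.18, 0.11 and 0.36 in TP, none of which passed. A second Smad3 probe was 0.95 and 1.13 lower (adjusted p = 0.014 and 0.00327), so that the call of Smad3 depends on the probe. Both inhibitory SMADs were lower, Smad6 by 1.96 and 1.72 (adjusted p = 1.2e-07 and 8.8e-07) and Smad7 by 0.84 and 1.5 (adjusted p = 0.0155 and 4.8e-05), the first of the Smad7 calls being lost without replicate 1 or 4.

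Of the remaining members, Tgfbi read 8.34, 6.42, 7.96 and 10.47 in TM and 9.51, 10.18, 8.86 and 9.17 in TP, below the 12.69 to 14.26 of all Kupffer samples. It was 4.89 and 4.34 lower (adjusted p = 1.4e-08 and 9.9e-08). Bmper and Bmp1 were higher in both tumor groups, by 2.29 and 1.68 and by 2.09 and 1.41. Bmp2k was 2.55 and 3.01 lower.

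The pathway beyond the named families was followed with a list of 69 genes for latency, other ligands, antagonists, coreceptors, intracellular regulators and target genes. Between control Ito and control endothelial cells 7 were higher and 14 lower, among the latter 6 of 18 target genes, where 4.17% of all probes were higher and 5.72% lower. Without Ito and Kupffer replicate 4, 6 were higher and 12 lower. Id4, an inhibitor of DNA binding that BMPs induce, differed by -5.94, Ctgf, a matricellular target, by -4.69, Tagln, an actin-binding protein of contractile cells, by -3.32, and Eng, the endothelial coreceptor endoglin, by -2.16. In TME endothelial cells, where 1.14% of all probes passed, 1 of the 69 rose, the BMP antagonist Grem1 (7.86 ± 0.32 in control and 11.18 ± 0.72 in TME cells, SD, n = 4, difference 3.31, limma adjusted p = 0.0036), and 1 fell, Id4 (12.19 ± 0.31 and 9.51 ± 0.17, difference -2.68, adjusted p = 0.02). None of the 69 passed in TME Ito or TME Kupffer cells, against 0.289% and 0.436% of all probes, while 11 and 1 did without Ito and Kupffer replicate 4, against 7.66% and 3.85%. Between TP and TM, Snai2, a target that represses epithelial genes, differed by 1.13 and Eng by -1.06, both with an adjusted p of 0.037. These were 2 of the 69, against 3.01% of all probes, and 1 passed without Ito and Kupffer replicate 4, against 2.8%.

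Against Kupffer cells, 22 of the 69 were higher and 24 lower in TM, and 26 higher and 24 lower in TP, where 23.3% of all probes were higher and 16.2% lower in TM and 25.7% and 17.8% in TP. The fit without Ito and Kupffer replicate 4 gave 22 and 24 in TM and 26 and 25 in TP. Of the 18 target genes, 5 were higher and 10 lower in both tumor groups. The collagen genes Col1a2, at 4.73 and 4.41, and Col1a1, at 3.90 and 4.62 above the Kupffer samples, were among the higher ones. Of 10 latency genes 4 were higher and 4 lower in TM and 4 higher and 5 lower in TP, with the latent TGF-beta binding protein Ltbp1 at 3.66 and 3.83 above. Of 13 secreted antagonists 5 were higher and 2 lower in TM and 7 higher and 1 lower in TP, with Grem1 5.35 and 4.64 and the activin-binding follistatin gene Fst 4.25 and 5.0 above. Ctgf differed by -5.40 and -8.01, and Eng by -6.10 and -6.77.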

How the data were processed

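The authors deposited the Feature Extraction output of each array, with the intensity of each spot in both channels, and a table of normalized intensities per probe and sample, which per the labels belongs to 32 samples in 8 groups. A column of that table followed the log2 of the processed signal of its own channel, which is background-subtracted and dye-normalized by the scanner program, with r from 0.995 to 1.00. The log2 of this deposited table was used, and 0 value columns were left without a sample. Spots well above background were taken from the scanner's own flags. All 32 samples were fitted to the 8 groups with limma (lmFit and eBayes), with Benjamini-Hochberg adjustment over all 55681 probes and a call at an adjusted p under 0.05. The fit was tested on simulated data. The precision is limited by 4 samples per group.

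The members and all lists were chosen with earlier results of these data known. Described whatever their values were the main ligands, receptors and SMADs of each role. In addition, for each comparison, up to 5 members per direction, those of greatest size among the calls and well above background in the 4 samples of the higher group, were named. Genes carry the names printed in the scanner output. Alternatives were the processed signal quantile normalized anew, normexp with an offset of 50 followed by quantile or by loess and Aquantile normalization, scaling to the 75th percentile, a filter on dim probes, the array as a block, the methods' t-test, their thresholds (adjusted p under 0.001 and at least 4-fold), another probe per gene, and samples left out. Deviations of samples on the same array correlated with r from -0.64 to 0.40, so the numbers did not pair all samples. Promoters are those of RefSeq. The tools were R 4.3.3, limma 3.58.1, data.table (1.17.8), Python 3.11.15, numpy 2.4.6 and matplotlib 3.10.9.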

Additional observations from a re-analysis of the deposited data

Results flagged for a closer look

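The 21 members the results turn on were tested in all 8 groups, also where a member lay at background. In 22 of these 168 groups of 4 samples, 1 sample lay far from the other 3, by the share of the group's range that separates it from its nearest neighbour. Chance gives about 1 in 20 such groups. Of the 22, the samples labelled replicate 4 of Ito or Kupffer cells account for most. In control Ito cells replicate 4 stood apart for Acvrl1 (0.962), Bmp1 (0.899), Bmp6 (0.921), Gdf15 (0.960), Gdf2 (0.965) and Inhbb (0.833). In TME Kupffer cells replicate 4 stood apart for Acvrl1 (0.924), Gdf15 (0.925), Inhba (0.975), Inhbb (0.893), Smad5 (0.919), Tgfb1i1 (0.875) and Tgfbi (0.963), and in control Kupffer cells for Smad1 (0.951). For Tgfbi, TME Kupffer 4 read 12.74 beside 14.09 to 14.14 in the other TME samples, while control Kupffer 4 read 14.26 beside 12.69 to 13.04. Replicate 2 stood apart in TME endothelial cells for Gdf10 (0.831), Inhbb (0.849), Tgfb2 (0.917) and Tgfbi (0.872), and in TME Ito cells for Gdf10 (0.854), Smad3 (0.837) and Tgfb3 (0.852). In the metastases replicate 4 stood apart for Inhbc (0.938), which was not well above background there.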

How the results depend on the processing

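Directions were followed for 124 differences of 39 named members, all of them calls of the main fit. They kept their sign under every alternative value, scaling, test or sample choice (117 of 117 where dim probes were left out). Only with the probe of highest variance did 3 reverse: Smad5 in TM (-0.37) and TP (-0.70) and Tgfbr1 in TP (-0.43), each against Kupffer cells. The methods' t-test, their thresholds and the filter on dim probes use the same group means, so no sign could change there. The other settings reuse the same samples, and differences picked as calls seldom change sign, so this is no independent support. Scaling to the 75th percentile moved the median of all probes by -0.20 (control Kupffer against control Ito) to 0.52 (TP against TME Kupffer), and differences are to be read against that shift. The methods' t-test called 5 members in TME endothelial (Bmp5, Gdf15, Gdf2, Tgfbr1 and Tgfbr2), 1 in TME Ito, 6 in TME Ito against TME endothelial cells and 0 between TP and TM. Their thresholds left 0 in TME endothelial cells and 0 between TP and TM, 7 in control Ito and 6 in control Kupffer against control endothelial cells, 2 in TME Ito against TME endothelial and 2 in control Kupffer against control Ito cells, 21 in TM and 16 in TP. Both normexp settings left 0 between TP and TM. The array block raised that count to 3, and its other changed call was Bmp8a between control Ito and control endothelial cells (adjusted p = 0.0511). Without Ito and Kupffer replicate 4 the counts were 2 in TME endothelial, 5 in TME Ito and 2 in TME Kupffer cells, and 3 for the change between cell types, where loess gave 1. With each replicate number left out in turn, counts ranged from 0 to 1 in TME endothelial, 0 to 5 in TME Ito, 0 to 1 in TME Kupffer cells, 0 to 4 between TP and TM and 0 to 3 for the change between cell types. They ranged from 11 to 20 in control Ito against control endothelial, 5 to 15 in TME Ito against TME endothelial, 11 to 13 in control Kupffer against control endothelial, 8 to 13 in control Kupffer against control Ito, 33 to 35 in TM and 32 to 34 in TP. Without replicate 1, 2, 3 or 4, 30, 14, 22 and 14 of the 124 calls were lost. These fits have fewer samples and each leaves out different ones, and the causes of the losses were not tested. Signal limits the tumor values of Bmp6, Gdf2, Bmp5 and Gdf10, which lay at background.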

Other observations

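Some values of members were not described above. The second probe of Gdf1 was 2.27 higher in TME than in control Kupffer cells and passed the limma test, while the probe used was not called there. Bmp8b read 7.46 in TME Ito 2 and between 3.95 and 4.25 in the other TME Ito samples. Acvr1c, the type I receptor of nodal and some activins, was well above background in 1 of 32 samples and read 4.42 in control Ito 3, where the other control Ito samples read 2.23 to 2.50.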
